A study of Mus musculus with 9 samples.

Results

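Regions of open chromatin at the genes of odorant and pheromone receptors were examined in alphaTC1 cells, a mouse cell line derived from glucagon-producing alpha cells of the pancreas. ATAC-seq was used, in which a transposase inserts sequencing adapters where DNA is accessible, so that the count of a region measures how open it is. A region was taken when it lay within 20 kb of a gene named Olfr (odorant receptor), Vmn1r or Vmn2r (vomeronasal receptors) in mm10, and when it did not touch an end of any other protein-coding gene, from 1000 bp outside to 500 bp inside that end. This gave 317 of the 80827 regions that the study counted: 255 nearest to an Olfr gene, 36 to a Vmn1r gene and 26 to a Vmn2r gene. The rule used position only, and no measured value. The cells had been transduced 5 days earlier with an empty vector, with an shRNA directed at Smndc1 (the gene of a Tudor domain protein of the spliceosome), or with an shRNA directed at Atrx, a remodeler that helps deposit histone H3.3 in heterochromatin. There were 3 libraries in each of the 3 groups, described by the submitters as individual biological replicates. All groups were transduced, all were of this cell line, and the sources used here name 1 shRNA (sh95) for Smndc1 and give no sequence for either shRNA.

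Odorant receptors are G protein-coupled receptors of the olfactory epithelium, and each olfactory neuron is known to express a single allele of a single receptor gene while the other copies lie in heterochromatin. Vomeronasal receptors are used by the vomeronasal organ for pheromones, Vmn1r with the G protein subunit Gnai2 and Vmn2r with Gnao1. The genes stand in large clusters, many are pseudogenes, and the coding sequence of an odorant receptor usually lies in 1 exon. In cells outside the nose these clusters are generally silent.

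Of the 317 regions, 7 overlapped the 300 bases around an annotated start of a receptor gene, and 6 of these covered the start itself. The start windows of 4 of the 6, those with an ATG at the annotated start, are printed because they show what sequence was accessible there. The window of Olfr1347 also lies in a region that some, but not all, of the fits described below called lower with Smndc1 shRNA. Each runs from 250 bases before to 50 bases after the annotated gene start, 5′ to 3′ on the strand of the gene (RefSeq, GRCm38.p6), and capitals mark an ATG at the annotated gene start, after the first 250 bases, and any match to a motif searched. The region at Olfr1347 (chr7:6488702-6489258) covered the whole window chr7:6488823-6489122 on the minus strand, which holds an AP-1 match at base 77 and an E-box match at base 269.
Olfr1347: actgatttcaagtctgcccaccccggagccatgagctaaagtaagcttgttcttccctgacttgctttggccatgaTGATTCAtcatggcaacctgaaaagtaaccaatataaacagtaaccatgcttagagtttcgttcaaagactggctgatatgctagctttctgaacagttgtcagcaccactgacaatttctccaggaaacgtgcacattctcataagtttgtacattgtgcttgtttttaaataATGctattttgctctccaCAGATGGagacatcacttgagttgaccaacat
Olfr1412: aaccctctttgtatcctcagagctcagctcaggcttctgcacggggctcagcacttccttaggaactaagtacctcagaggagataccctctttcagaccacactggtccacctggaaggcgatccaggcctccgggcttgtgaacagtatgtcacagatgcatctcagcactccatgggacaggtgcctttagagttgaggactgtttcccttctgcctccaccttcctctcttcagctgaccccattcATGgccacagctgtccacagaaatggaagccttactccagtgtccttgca
Olfr63: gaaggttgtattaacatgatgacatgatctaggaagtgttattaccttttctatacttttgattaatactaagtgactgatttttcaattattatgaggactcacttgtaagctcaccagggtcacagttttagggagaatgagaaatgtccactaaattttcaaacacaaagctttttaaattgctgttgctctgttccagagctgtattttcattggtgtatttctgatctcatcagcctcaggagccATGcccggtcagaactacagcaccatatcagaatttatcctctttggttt
Olfr357: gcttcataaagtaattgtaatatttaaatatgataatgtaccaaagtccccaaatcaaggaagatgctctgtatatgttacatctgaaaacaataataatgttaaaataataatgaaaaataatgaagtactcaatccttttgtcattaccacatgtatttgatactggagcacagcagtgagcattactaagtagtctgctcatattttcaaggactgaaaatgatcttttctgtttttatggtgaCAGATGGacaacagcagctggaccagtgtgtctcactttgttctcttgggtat

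The region at Olfr1412 (chr1:92587904-92588404) also covered the whole window, that at Olfr63 covered bases 82 to 300 and that at Olfr357 bases 131 to 300. In Olfr357 the E-box match starts at base 248 and runs over the ATG. The motifs were searched on both strands and were AP-1 (TGANTCA), E-box (CAGATGG), forkhead (TGTTTAC), homeodomain (TAATTA) and EBF (TCCCNNGGG). A window with AP-1 letters is no rarity among receptor genes: 15.9% of 1265 receptor windows hold them, against 7.93% of all 27025 windows of this length. For the E-box the shares were 4.19% and 5.36%, for homeodomain 16.7% and 5.31%, for forkhead 5.45% and 3.55%, and for EBF 3.24% and 6.43%. The median GC content was 35.7% in receptor windows and 52.7% in all windows. Windows were matched for 1265 of 1787 receptor genes, and a match is a run of letters, not a bound site. In 76.4% of the 1265 receptor windows the annotated start is an ATG. This holds for the windows printed, whose annotated gene lengths are multiples of 3. It does not hold for Olfr1358 and Olfr96, whose regions also covered the annotated start and whose windows are not printed. The window of Olfr96 has EBF matches at bases 283 and 284. Such a start may be the start codon of a model that holds only coding sequence, and transcription may begin elsewhere. The receptor windows may thus be placed unlike those of other genes, which limits the comparison of motif and GC shares.

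Open regions were sparse at the receptor genes. The 20 kb windows around the 1787 receptor genes span 44.5 Mb and held 353 regions before those at ends of other genes were set aside, or 7.93 per Mb, against 30.7 per Mb over the 2631 Mb that the regions span. Of the 1787 genes, 343 (19.2%) had at least 1 of the 317 regions within 20 kb: 290 of 1428 Olfr genes (20.3%), 30 of 233 Vmn1r genes (12.9%) and 23 of 126 Vmn2r genes (18.3%). Only 61 regions overlapped the body of a receptor gene, 22 lay inside another coding gene and 234 lay between genes. The regions outside receptor genes had a median distance of 7147 bp to the nearest one. The member farthest from its gene was at 19898 bp and the nearest region left out for distance was at 20001 bp.

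The open regions were weak. Levels are given in CPM, counts scaled to a library of 1 M, with TMM factors, averaged over the 9 libraries, and are divided by region width where regions are compared. The median was 6.05 CPM per kb (3.17 CPM), against 9.16 per kb over all 80827 regions, 34.0 per kb at ends of coding genes and 8.12 per kb in the other 67842 regions away from such ends. It lay near the 5.55 per kb of the 1754 regions more than 500 kb from any coding gene. Of the 317, 241 (76.0%) had a CPM below the median of all regions, and 33 (10.4%) reached 10 CPM, against 31.4% of all regions. By family the median was 6.44 per kb at Olfr, 5.15 at Vmn1r and 4.82 at Vmn2r genes, and 0 of the 26 Vmn2r regions reached 10 CPM. Regions within 20 kb of another coding gene were stronger, with 23.1% of 117 at 10 CPM or more and 3% of the 200 farther away.

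**Figure D1:**
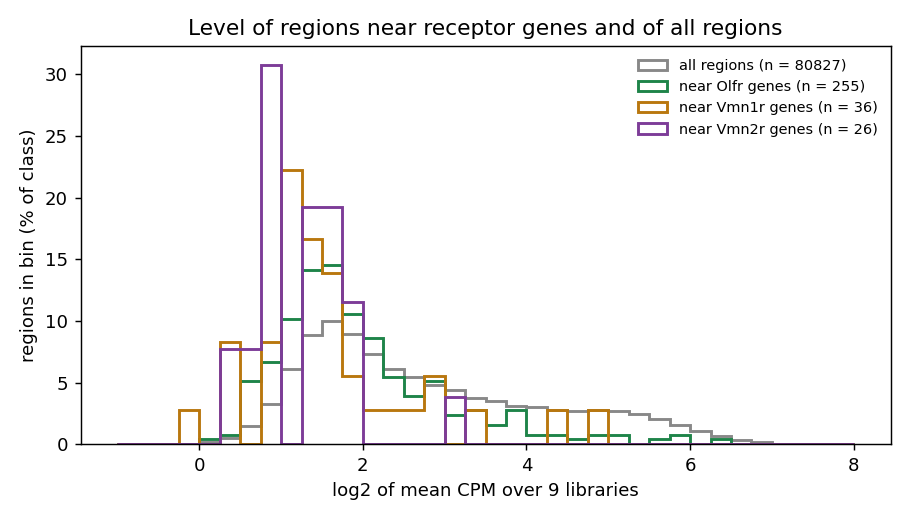
Distribution of mean level (log2 CPM over the 9 libraries, x axis) as the percent of regions in each bin (y axis) for all 80827 regions and for regions nearest to Olfr (255), Vmn1r (36) and Vmn2r (26) genes. The receptor regions sit to the left of all regions, whose distribution has a long right side that few receptor regions reach.

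The 8 strongest regions near receptor genes were not called in any of the 3 comparisons. They were taken by mean CPM, which favours wide regions. The first lies between genes, 4304 bp from Olfr288 (chr15:98181107-98181707). It had 78.8, 91.0 and 68.3 CPM with empty vector, 66.8, 91.2 and 61.4 with Smndc1 shRNA and 93.0, 72.2 and 64.8 with Atrx shRNA, so the groups overlapped. At 127.1 CPM per kb it is stronger than the median coding gene end. The next lie inside Rap1gap2, a GTPase-activating protein gene, 19754 bp from Olfr412 (59.6 CPM), and near 2 pseudogenes, Olfr278-ps1 (58.0 CPM, 4512 bp from Kansl2) and Olfr1421-ps1 (50.1 CPM, chr19:12011063-12012681). The region at Olfr1421-ps1 stood at 53.0, 51 and 34.3 CPM with empty vector, 45.4, 54.9 and 31.0 with Smndc1 shRNA and 66.8, 68.3 and 46.1 with Atrx shRNA. Its fold changes did not pass the test with TMM scaling (Atrx shRNA against empty vector, log2 0.39 ± 0.26 SE, edgeR adjusted p = 0.94). With the trended offsets described below, the Atrx shRNA libraries lay above those of both other groups. Atrx shRNA against empty vector then had 0.39 ± 0.13 (edgeR adjusted p = 0.179). Smndc1 against Atrx shRNA had -0.43 ± 0.13 (edgeR adjusted p = 0.097), and neither passed. After them came regions near Olfr1393 in Mgat1 (34.3 CPM), Olfr1371 in Skp1 (33.2), Vmn1r21 in Vopp1 (29.2) and Olfr1344 (27.9, 3239 bp from Smim17). Those in Mgat1, Skp1 and Vopp1 overlap annotated starts within these genes, which encode a glycosyltransferase, a ubiquitin ligase subunit and a membrane protein. Over all 317 regions, 4 overlap a start window of another coding gene and 1 that of a noncoding gene (near Olfr270, 26.5 CPM).

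Inside receptor genes no region was strong. The 61 regions in receptor bodies had a median of 5.74 CPM per kb, and 0 reached 10 CPM. The highest CPM was at Olfr357 (chr2:36996692-36997678), whose window is printed above, with 6.22, 8.30 and 9.08 CPM with empty vector, 4.41, 5.08 and 7.44 with Smndc1 shRNA and 8.51, 12.6 and 10.9 with Atrx shRNA. Its Atrx shRNA libraries all lay above its Smndc1 shRNA libraries, but the difference did not pass the test (Smndc1 against Atrx shRNA, log2 -0.92 ± 0.29, edgeR adjusted p = 0.358). By CPM, Olfr15 (6.96), Olfr898 (6.93), Olfr222 (6.48), Olfr525 (4.42), Olfr12 (4.33), Olfr1412 (4.30) and the pseudogene Olfr416-ps1 (4.23) came next. Per kb the order differs, since the region at Olfr357 is 987 bp wide: it had 8.16 CPM per kb, below Olfr222 (9.09), Olfr15 (8.94), Olfr898 (8.64), Olfr12 (8.63), Olfr1412 (8.58) and Olfr90 (8.36). At Olfr898 the 3 Smndc1 shRNA libraries (3.68, 6.61 and 3.38 CPM) lay below the 3 with empty vector (7.40, 7.91 and 8.61), with an adjusted p of 0.445 in edgeR. Receptor genes include near-identical copies. How reads that match several copies were counted is not given in the sources used here, so the place of a read within such copies is uncertain.

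The regions were spread unevenly over the gene clusters. With genes less than 1 Mb apart joined, the receptor genes form 87 clusters, of which 53 hold a region. The cluster with most genes, chr2:85330967-90401674 from Olfr987 to Olfr1274, has 293 genes and 3 regions. The cluster from Olfr543 to Olfr692 on chromosome 7, home of the class I odorant receptors, which resemble those of fish, has 158 genes and 6 regions. By contrast the 12 genes from Olfr288 to Olfr278-ps1 on chromosome 15 have 19 regions, and the 8 genes from Olfr1416 to Olfr12 on chromosome 1 (chr1:92479681-92621001) have 15. Most regions, 21, lie among the 58 genes from Olfr90 to Olfr136 on chromosome 17. The other clusters named by the rule for clusters are Olfr30 to Olfr225 on chromosome 11 (26 genes, 16 regions) and Vmn2r90 to Vmn1r237 on chromosome 17 (37 genes, 15 regions). Median levels in these 5 ran from 4.62 CPM per kb in the vomeronasal cluster to 10.7 in the chromosome 1 cluster.

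**Figure D2:**
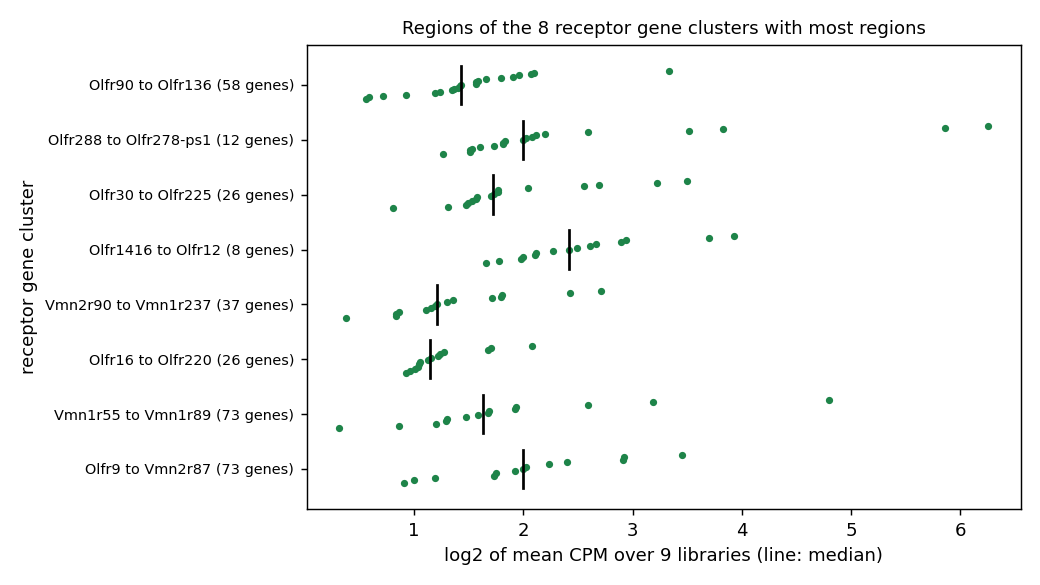
Mean level (log2 CPM over the 9 libraries, x axis) of each region in the 8 receptor gene clusters with most regions (y axis, with the number of receptor genes in each); points are regions and the line is the median. The cluster from Olfr1416 to Olfr12 has the highest median, while the strongest regions stand in the cluster from Olfr288 to Olfr278-ps1.

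Levels were compared between groups with the quasi-likelihood F test of edgeR, fitted to all 80345 regions that passed a count filter, 310 of the 317 among them, and called at a Benjamini-Hochberg adjusted p under 0.05. Library totals ran from 5.29 to 8.15 M counts, and the 317 regions took 0.149% to 0.207% of them, so the median member had 16 to 26 counts in a library. The libraries differ in contrast: the strongest 10% of regions hold 38.5% to 38.8% of counts in replicate 3 of each group and 43.3% to 48.8% in the other 6 libraries. Weak regions gain in libraries of low contrast. The fit was therefore also made with trended offsets, a smooth correction of each library along the scale from weak to strong regions that makes the libraries alike in this respect. Values are from the fit with TMM scaling unless trended offsets or another method are named with the value or the call. With groups of 3, p-values measure the spread between these libraries.

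Few receptor regions, or 0, were called with Smndc1 shRNA, depending on the fit. At these low counts a region that was not called is not shown to be unchanged. With TMM scaling 0 of 310 were called by edgeR, where 0.156% of all regions were called. At an unadjusted p under 0.05, 12 were higher and 6 lower (3.87% and 1.94%, against 3.63% and 4.46% of all regions). DESeq2 called 0 of the 68 receptor regions to which it gave an adjusted p (0.0649% of all such regions), and limma voom called 0 (0.0137% of all). With trended offsets 3 were called, where 1.13% of all regions were: 1 higher, near Vmn1r223 (0.416% of all regions were called higher), and 2 lower, at Olfr1347 and near Olfr827 (0.717% of all were called lower). The share called was 0.968%, against 1.13% of all regions, a background not matched for level. In 4 equal classes of all regions by level, from weakest to strongest, 0.0846%, 0.294%, 1.10% and 3.06% were called. Among receptor regions 1 of 149, 1 of 87, 1 of 54 and 0 of 20 were called in these classes (0.671%, 1.15%, 1.85% and 0%). In a bulk sample, fewer cells with an open region and a less open region in each cell cannot be told apart.

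The region near Vmn1r223 lies between genes, 19890 bp from this vomeronasal receptor gene (chr13:23270213-23270713), just inside the distance limit. It had 0, 0.259 and 0.626 CPM with empty vector (0, 2 and 4 counts), 3.38, 4.41 and 1.69 with Smndc1 shRNA (23, 26 and 10 counts) and 2.57, 2.29 and 0.649 with Atrx shRNA (16, 12 and 4 counts). The count of 0 allows a level of up to 0.444 CPM in that library, counting error only. All 3 Smndc1 shRNA libraries lay above all 3 controls. By these counts the region needed the Smndc1 shRNA libraries, where it is high, to pass the count filter. With no count filter, TMM scaling gave 3.36 ± 0.92 for Smndc1 shRNA against empty vector (edgeR adjusted p = 0.114). The log2 fold change was 3.41 ± 0.85 (edgeR with trended offsets, adjusted p = 0.0149) and 3.36 ± 0.91 with TMM scaling (adjusted p = 0.11). With trended offsets the call was lost without Smndc1 shRNA replicate 1 (adjusted p = 0.0558) or 2 (0.161) and without empty vector replicate 1 (0.147) or 2 (0.102), and with TMM scaling it was gained when replicate 3 of Atrx shRNA (0.0481) or of empty vector (0.0279) was left out. Against empty vector, Atrx shRNA had 2.69 ± 0.88 at this region, which did not pass (trended, edgeR adjusted p = 0.188).

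At the odorant receptor gene Olfr1347, accessibility over the annotated start printed above, an ATG, was lower with Smndc1 shRNA. The region had 7.26, 5.71 and 4.70 CPM with empty vector (49, 44 and 30 counts), 1.47, 2.2 and 2.71 with Smndc1 shRNA (10, 13 and 16 counts) and 3.53, 3.63 and 3.08 with Atrx shRNA. Every Smndc1 shRNA library was below every control, and in TMM levels the Atrx shRNA libraries lay in between, while after correction by trended offsets they overlapped both groups. The log2 fold change was -1.65 ± 0.45 (edgeR, trended offsets, adjusted p = 0.0301) and -1.47 ± 0.47 with TMM scaling (adjusted p = 0.242). This call ended without Smndc1 shRNA replicate 1 (adjusted p = 0.193), 2 (0.0529) or 3 (0.056) and without empty vector replicate 1 (0.279) or 2 (0.148). For Atrx shRNA against empty vector the value was -0.90 ± 0.43 (trended, edgeR adjusted p = 0.469).

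The other lower region lies 18331 bp from Olfr827 on chromosome 10 (chr10:130229459-130230070) and 38082 bp from Neurod4, a neurogenic transcription factor gene. It stood at 11.1, 10.2 and 11 CPM with empty vector (75, 79 and 70 counts), at 3.53, 5.42 and 5.92 with Smndc1 shRNA (24, 32 and 35 counts) and at 8.03, 2.86 and 10.2 with Atrx shRNA (50, 15 and 63 counts). The Smndc1 shRNA libraries lay below the controls, while the Atrx shRNA libraries ran from below the Smndc1 shRNA range to just under the lowest control. It fell by 1.08 ± 0.30 on the log2 scale (edgeR, trended offsets, adjusted p = 0.044), and the TMM value was -1.12 ± 0.31 (adjusted p = 0.13). The call was lost without Atrx shRNA replicate 2 (adjusted p = 0.0514), Smndc1 shRNA replicate 1 (0.262) or 2 (0.0642), and empty vector replicate 1 (0.202), 2 (0.196) or 3 (0.0579). A neighbouring weak region, 17079 bp from the gene, had -1.21 ± 0.45 and did not pass (edgeR, trended, adjusted p = 0.191).

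**Figure D3:**
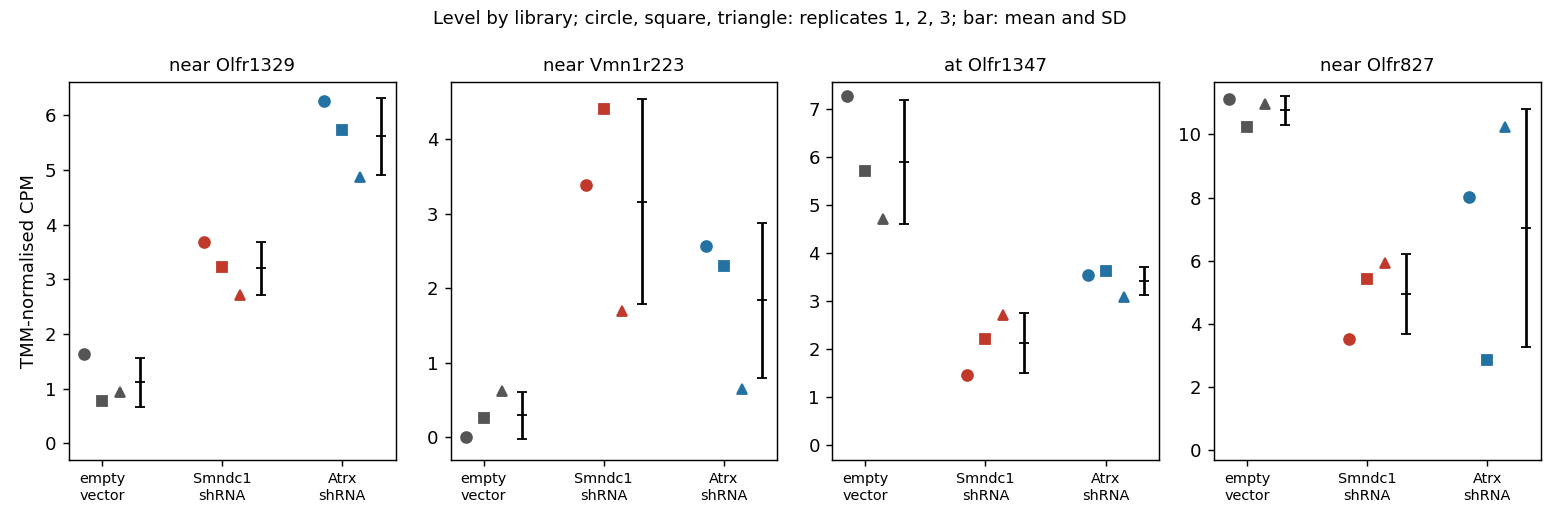
TMM-normalised level (CPM, y axis) in each library of the 4 receptor regions called with trended offsets, by group (x axis); circles, squares and triangles are replicates 1, 2 and 3, and the bar is the mean and SD of 3. Near Olfr1329 the 3 groups do not overlap in these TMM levels, and near Olfr827 the Atrx shRNA libraries spread from 2.86 to 10.2 CPM.

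With Atrx shRNA, the region near Olfr1329 on chromosome 4 was more open, and it was the receptor region called in that comparison. It lies between genes, 5453 bp from this odorant receptor gene and 38549 bp from Lao1, an amino acid oxidase gene (chr4:118922918-118923418). Levels were 1.63, 0.778 and 0.939 CPM with empty vector (11, 6 and 6 counts), 3.68, 3.22 and 2.71 with Smndc1 shRNA (25, 19 and 16 counts) and 6.26, 5.73 and 4.87 with Atrx shRNA (39, 30 and 30 counts). In these TMM levels all Atrx shRNA libraries were above all Smndc1 shRNA libraries, and these were above all controls. After correction by trended offsets both shRNA groups still lay above the controls but overlapped each other, with Atrx shRNA replicate 3 at 3.62 CPM and Smndc1 shRNA replicate 2 at 3.75. The log2 fold change for Atrx shRNA was 2.18 ± 0.51 (edgeR, trended offsets, adjusted p = 0.0215) and 2.32 ± 0.55 with TMM scaling (adjusted p = 0.221). For Smndc1 shRNA it was 1.31 ± 0.53 and did not pass (trended, edgeR adjusted p = 0.238), and the difference between the shRNAs was -0.87 ± 0.46 (adjusted p = 0.567). The Atrx call was lost without Atrx shRNA replicate 1 (adjusted p = 0.296) or 2 (0.169) and without empty vector replicate 2 (0.158) or 3 (0.105).

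In this comparison TMM scaling gave 0 of 310 called by edgeR, where 0% of all regions were called, and DESeq2 and limma voom called 0 as well (0% of all regions each). At an unadjusted p under 0.05, 20 were higher and 4 lower (6.45% and 1.29%, against 3.15% and 2.6% of all regions). Trended offsets gave the 1 higher region, where 0.195% of all regions were called higher and 0.269% in either direction. In Smndc1 against Atrx shRNA, edgeR called 0 of 310 with TMM scaling (0.0759% of all regions) and 0 with trended offsets (0.592% of all regions). With TMM scaling 2 were higher and 10 lower at an unadjusted p under 0.05 (0.645% and 3.23%, against 2.34% and 3.06% of all regions). DESeq2 called 0 of 51 with an adjusted p (0.0496% of all such regions) and limma voom called 0 (0.00871% of all).

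**Figure D4:**
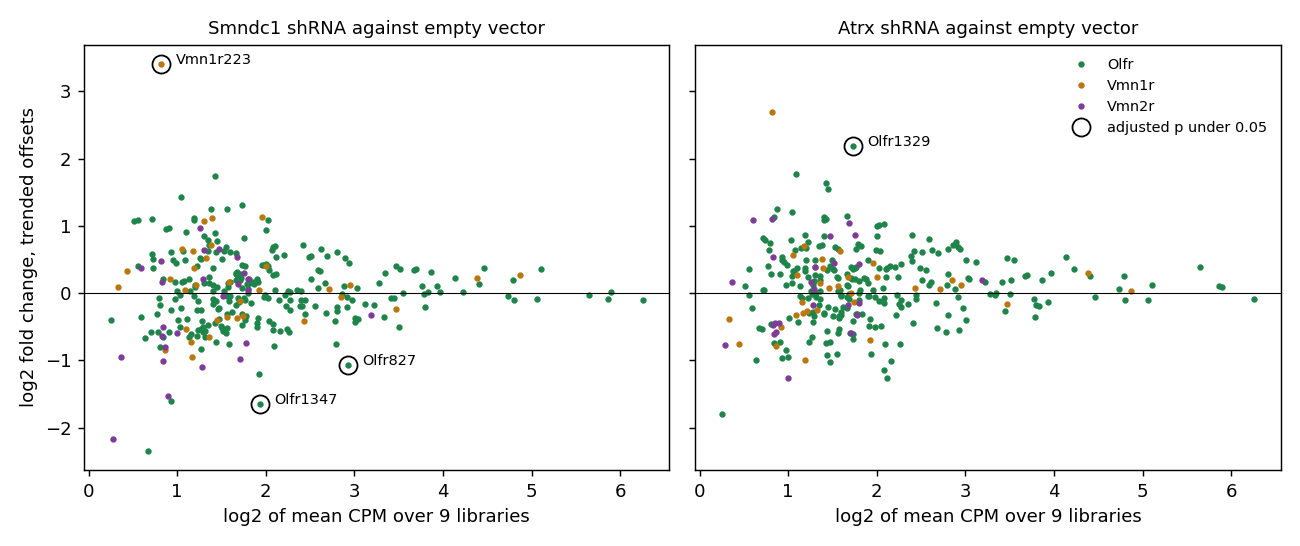
Log2 fold change with trended offsets (y axis) against mean level (log2 CPM over the 9 libraries, x axis) for the 310 tested receptor regions, coloured by family, with Smndc1 shRNA (left) and Atrx shRNA (right) against empty vector. Circles mark the 4 regions with an adjusted p under 0.05; fold changes scatter widely at low levels and lie close to 0 at the strongest regions.

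Some regions had groups that did not overlap without passing the test. With TMM levels, Smndc1 shRNA lay wholly above empty vector at 19 of 310 receptor regions and below at 11 (6.13% and 3.55%, against 5.76% and 7.02% of all regions). For Atrx shRNA the counts were 15 and 8 (4.84% and 2.58%, against 4.83% and 5.65%), and for Smndc1 against Atrx shRNA 9 and 19 (2.90% and 6.13%, against 5.03% and 5.15%). At Olfr78, a class I receptor gene whose product responds to short-chain fatty acids, a region in the gene body had 1.04, 0.519 and 1.41 CPM with empty vector and 2.89, 4.77 and 3.73 with Atrx shRNA (log2 1.93 ± 0.72, edgeR adjusted p = 0.724). It had 7, 4 and 9 counts with empty vector, 5, 8 and 16 with Smndc1 shRNA and 18, 25 and 23 with Atrx shRNA. The Olfr78 region thus needed the Atrx shRNA libraries, where it is high, to pass the count filter. A region near Olfr110, inside the MHC class I gene H2-M2, had 0.740, 0.648 and 1.57 CPM with empty vector, 2.35, 4.91 and 3.38 with Smndc1 shRNA and 2.25, 3.25 and 5.03 with Atrx shRNA. Its log2 fold changes were 1.84 ± 0.64 and 1.83 ± 0.64 (edgeR adjusted p = 0.313 and 0.661). Both shRNA groups are set against the same 3 control libraries here.

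Lower without passing were a region in the body of Vmn2r25 with Smndc1 shRNA (-1.92 ± 0.99, edgeR adjusted p = 0.636) and a region 5417 bp from Olfr155 with Atrx shRNA (-0.72 ± 0.39, adjusted p = 0.899). The Vmn2r25 region had 11, 14 and 11 counts with empty vector, 0, 2 and 6 with Smndc1 shRNA and 2, 7 and 17 with Atrx shRNA. It needed the empty vector libraries to pass the count filter. Near Olfr283 on chromosome 15, the libraries had 4.15, 5.06 and 5.01 CPM with empty vector, 4.85, 6.61 and 7.11 with Smndc1 shRNA and 2.09, 2.29 and 1.79 with Atrx shRNA. The shRNAs differed there by 1.58 ± 0.44 (edgeR adjusted p = 0.218; trended 1.55 ± 0.43, 0.0553), and Atrx shRNA against empty vector had -1.20 ± 0.45 (adjusted p = 0.716). Without empty vector replicate 3, the trended fit called 1 receptor region between the shRNAs, this one. Other regions with separate shRNA groups were near Vmn1r235 (1.39), Olfr94 (-0.99) and Olfr527 (-1.11), and near Vmn1r49, where Smndc1 shRNA had 1.88 ± 0.0285 CPM and Atrx shRNA 0.940 ± 0.534. None of them passed. The region near Vmn1r49 needed the Smndc1 shRNA libraries (13, 11 and 11 counts), where it is higher, to pass the count filter.

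As a group the receptor regions had medians above 0 against empty vector with both shRNAs. With TMM scaling the median log2 fold change was 0.19 with Atrx shRNA (200 of 310 above 0, against a median of 0.01 and 50.7% of all regions) and 0.10 with Smndc1 shRNA (181 of 310, against 0.02 and 51.8%). Between the shRNAs it was -0.03 (139 of 310 above 0). With trended offsets the Atrx median was 0.10 (179 of 310, against -0.02 and 48.2%) and the Smndc1 median 0.03 (165 of 310, against 0.01 and 50.5%). The 1754 regions more than 500 kb from coding genes had the same Atrx median of 0.19 with TMM scaling, and 0.06 with trended offsets. Among the weakest of 4 equal classes of all regions by level, which holds 149 of the receptor regions, the Atrx medians were 0.31 for receptor regions and 0.15 for all regions (TMM), and 0.10 and -0.05 (trended).

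These medians moved with single libraries. The Atrx median with TMM scaling was 0.03 without Atrx shRNA replicate 3, and 0.12 or 0.32 when empty vector replicate 1 or 3 was left out. The Smndc1 median was 0.02 without Smndc1 shRNA replicate 3, 0.06 without its replicate 1, 0.06 and 0.04 when empty vector replicate 1 or 2 was left out, and 0.28 when its replicate 3 was. With trended offsets the Atrx median stayed between 0.07 and 0.12 and the Smndc1 median between -0.08 and 0.04. The median CPM of the 317 regions was 2.90 ± 0.634 with empty vector, 3.43 ± 0.346 with Smndc1 shRNA and 3.41 ± 0.826 with Atrx shRNA (mean ± SD, n = 3 each). After correction by trended offsets, over the 310 tested regions, it was 3.10 ± 0.108, 3.30 ± 0.283 and 3.30 ± 0.160. The groups overlapped on both scales. Whether library contrast has a part in the medians left with trended offsets was not tested.

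**Figure D5:**
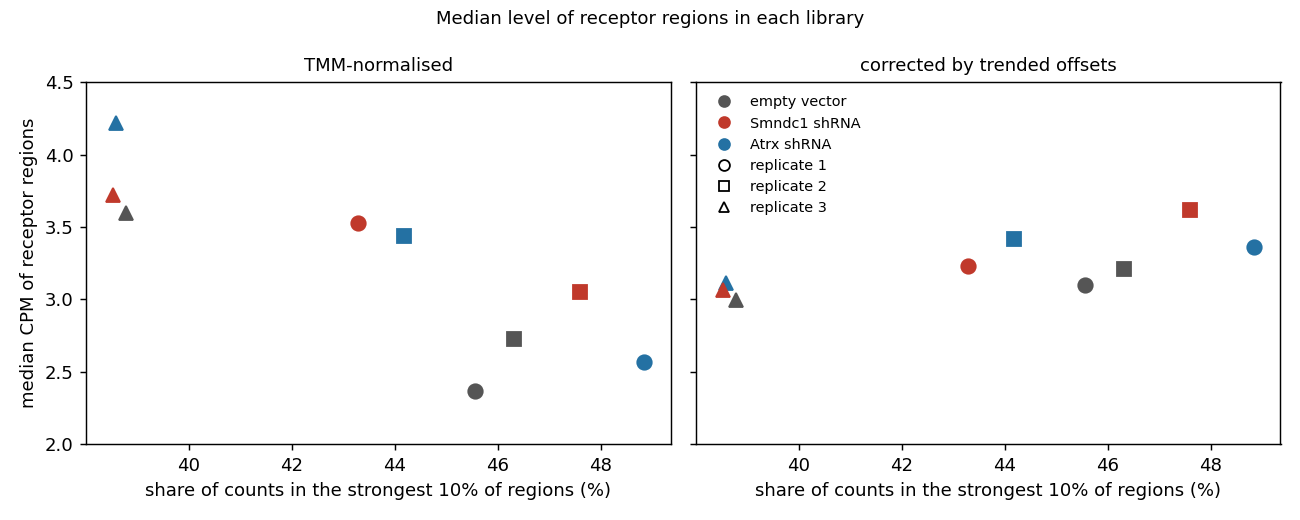
Median level of the receptor regions in each library (CPM, y axis) against the share of that library's counts in the strongest 10% of regions (%, x axis). Left, TMM scaling over all 317 regions. Right, correction by trended offsets over the 310 tested regions. Colour is the group and shape the replicate. With TMM scaling the 3 replicate 3 libraries, with a share under 39%, have the highest medians; after correction all 9 lie between 2.997 and 3.62 CPM.

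Subsets differed in their medians, which are given as descriptions. Regions in receptor bodies had an Atrx median of 0.37 with TMM scaling (45 of 61 above 0) and 0.22 with trended offsets (41 of 61), and 0 of 61 were called. Against Atrx shRNA, Smndc1 shRNA had medians of -0.28 in receptor bodies (22 of 61 above 0) and -0.44 at Vmn2r genes (7 of 25 above 0), also with 0 called. In the chromosome 1 cluster from Olfr1416 to Olfr12, 14 of 15 regions were above 0 with Smndc1 shRNA (median 0.45; trended 0.41, 14 of 15) and 12 of 15 with Atrx shRNA (0.34; trended 0.36, 10 of 15), with 0 called. In the cluster of 16 regions from Olfr30 to Olfr225 the Smndc1 median was -0.16, with 6 above 0. Neighbouring regions share their surroundings and are not replicates.

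The genes through which receptors signal, and those that control receptor choice, were measured within 10 kb of their bodies. Of 111 regions at 15 genes of olfactory transduction, edgeR called 0 with TMM scaling in the 3 comparisons. With trended offsets 1 rose with Smndc1 shRNA, where 0.416% of all regions were called higher. It lies near Pde1c, a calmodulin-dependent phosphodiesterase of olfactory cilia, whose gene has 49 of the 111 regions. Its level went from 9.59 ± 0.681 to 17.1 ± 2.81 CPM (log2 0.92 ± 0.23, adjusted p = 0.0143, edgeR). The Pde1c call ended without Smndc1 shRNA replicate 1 (adjusted p = 0.0621) or 2 (0.0977) and empty vector replicate 1 (0.0909) or 2 (0.124). Between the shRNAs, trended offsets called 0.592% of all regions and 1 of the 111. This region, near Reep1, which helps receptors reach the cell surface, was higher with Smndc1 than with Atrx shRNA (22.8 ± 1.69 and 13.6 ± 1.52 CPM, 0.76 ± 0.20, edgeR trended adjusted p = 0.0351). That call ended without Atrx shRNA replicate 1 (adjusted p = 0.42) or 2 (0.113), Smndc1 shRNA replicate 1 (0.214) or 3 (0.0638), or empty vector replicate 1 (0.0637) or 2 (0.0581).

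There were 46 regions at 7 of 8 genes of vomeronasal signalling, 20 of them at Gnao1. Of the 46, 1 was called, between the shRNAs (0.0759% of all regions with TMM scaling, 0.592% with trended offsets). It lies at Gnao1, the G protein subunit used by Vmn2r receptors and by many neurons (chr8:93945750-93946625), with 21.6 ± 0.951 CPM in Smndc1 shRNA and 10.5 ± 1.39 in Atrx shRNA. The difference was 1.04 ± 0.23 with TMM scaling (edgeR adjusted p = 0.0466) and 1.05 ± 0.22 with trended offsets (0.00159). With TMM scaling it held without empty vector replicate 3 (0.0143) and was lost without any 1 of the other 8 libraries: Atrx shRNA 1, 2 and 3 (0.162, 0.472 and 0.0857), Smndc1 shRNA 1, 2 and 3 (0.252, 0.097 and 0.0819) and empty vector 1 and 2 (0.0725 and 0.0684). With trended offsets it was lost without Atrx shRNA replicate 2 (0.0512). Of 97 regions at 22 genes of receptor choice and silencing, such as Lhx2, Ldb1, Lbr and Atrx itself, edgeR called 0 in the 3 comparisons with either scaling. Of 67 genes of other chemosensory receptors (trace amine, taste and formyl peptide receptors) 28 had a region, 30 in all, with a median of 2.71 CPM, and 0 were called.

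The labelled cell type was set beside the regions at marker genes. Of 10 alpha cell genes 9 had a region within 10 kb, and the exception was Gc. The strongest region of Gcg, the glucagon gene, was at 31.4 CPM. Of 8 beta cell genes 6 had a region, among them Mafa at 51.7 CPM and Nkx6-1 at 49.2, and 0 regions were near Ins1 and Ucn3. All 9 olfactory neuron genes had a region, with a median of 3.86 CPM over 36 regions and the strongest region of each gene ran from 2.61 CPM at Cnga2 to 73.1 at Gng13. Lhx2 had 37.2 CPM, Ncam2 29.0, Gnal 19.7 and Omp, the olfactory marker protein gene, 8.19. These are the strongest regions within 10 kb, not divided by width, and may belong to other genes. At the ends of the genes themselves, Lhx2 had 17.0 CPM and Gcg 31.4, and Omp had 0 regions. Regions called at alpha cell genes with trended offsets in edgeR were 5 higher and 0 lower of 65 with Smndc1 shRNA (0.416% of all regions were called higher and 0.717% lower) and 2 higher and 1 lower with Atrx shRNA (0.269% of all in either direction). Of 9 regions at beta cell genes, trended offsets called 1 higher with Smndc1 shRNA (0.416% of all regions). They called 1 higher and 1 lower with Atrx shRNA (0.269% of all in either direction). With TMM scaling 0 of the 9 were called. At olfactory neuron genes 0 were called in the 3 comparisons with either scaling. Of 25 regions at 6 fibroblast and endothelial genes, trended offsets called 1 lower with Smndc1 shRNA, at Col1a1 (0.717% of all regions), and TMM scaling called 0.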

How the data were processed

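Raw counts were deposited by the authors for 80827 consensus regions in 9 libraries, per the file headers, with 0 columns left unmatched to a sample. Reads were 75 bp, paired, per the labels' protocols. The submitters' processing notes name Bowtie2 2.4.4, SAMtools, deepTools 3.5.1, MACS2 2.2.7.1, bedtools 2.27.1 and mm10; what was counted, and how reads with several matches were treated, is not given in the sources used here. Region width is 501 bp for 53.4% of regions, and for 74.8% of the receptor regions.

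Receptor regions were found from gene bounds in RefSeq (GRCm38.p6). Levels are CPM with TMM factors. Tests used edgeR 4.0.16 in R 4.3.3 (filterByExpr, minimum count 10, robust quasi-likelihood fit, 9 libraries in 1 fit, adjusted p over 80345 regions); 482 regions, 7 of them at receptor genes, fell below the filter. Trended offsets used loess with a span of 0.3. The fits were tested on simulated data for Smndc1 shRNA against empty vector (80345 regions, replicate 3 of every group given lower contrast). TMM scaling found 24 of 100 regions with a 2-fold change and 66 of 100 with a 4-fold change, and 5 of its 95 calls were false. Trended offsets found 27 and 66, with 6 of 99 false. The changed regions were drawn from all tested regions, so these counts do not give the power at the weaker receptor regions. In the data the 2 fits called 125 and 910 regions, a gap that the simulation lacks. It therefore cannot show how many calls in the data are false. Alternatives were DESeq2 1.42.0, limma 3.58.1 voom, other size factors, no filter, a mean count of at least 50, 6 libraries, each library or replicate 3 left out, a replicate block, and narrower or wider rules of place. Tables and figures used Python 3.11.15, pandas 2.3.3, numpy 2.4.6 and matplotlib 3.10.9.

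The receptor regions and the gene lists were chosen with earlier results of these data known. Named were regions called in either fit, the 8 strongest overall and in receptor bodies, the 3 highest and 3 lowest fold changes per comparison among regions whose groups do not overlap (mean log2 CPM of at least 0), the 5 clusters with most regions, and called regions of the lists. The neighbour of the Olfr827 region and the region near Olfr270 were named after their values were seen. Motifs were searched by exact letters, and each gene has 1 start window. The values of some single marker genes are not reported here.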

Additional observations from a re-analysis of the deposited data

How the results depend on the processing

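The count of receptor regions called was 0 with TMM scaling in all 3 comparisons and depended on the fit. With trended offsets it was 3 for Smndc1 shRNA and 1 for Atrx shRNA against empty vector (1.13% and 0.269% of all regions). With replicate 3 of every group left out it was 2 for Smndc1 shRNA (0.771% of all regions, against 0.156% with all libraries), 2 when trended offsets were also used (1.29%), and for Atrx shRNA 1 with both (0.487%). Leaving out 1 library gave 0 to 1 for Smndc1 shRNA with TMM scaling (0.00124% to 0.755% of all regions) and, with trended offsets, 0 to 3 for Smndc1 shRNA (0.298% to 1.51%), 0 to 1 for Atrx shRNA (0.0260% to 0.563%) and 0 to 1 between the shRNAs (0.171% to 0.641%). The share of all regions called moved in the same fits. The cause of these changes was not tested. DESeq2, limma voom, other size factors, no filter and 6 libraries gave 0 throughout, as did a mean count of at least 50, under which 42 of the 317 regions remain. For Smndc1 shRNA against empty vector DESeq2 gave an adjusted p to 68 of the 317 regions, and none to those of Vmn1r223 and Olfr1347.

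The replicate numbers were checked for pairing: deviations of same-numbered libraries from their group means correlated at 0.313 to 0.419 across regions for replicate 3, at -0.039 to 0.254 for replicate 1 and at 0.026 to 0.16 for replicate 2. The replicate 3 libraries thus shared deviations, as they share a low contrast, while the other numbers showed this less. Whether a number marks samples handled together was not tested, and the main fits had no block. Without a block, TMM scaling called 0.156% of all regions for Smndc1 shRNA and 0% for Atrx shRNA against empty vector, and 0.0759% between the shRNAs. With the replicate block the called counts were 2 for Smndc1 shRNA and 1 for Atrx shRNA against empty vector and 1 between the shRNAs (1.58%, 0.288% and 0.764% of all regions); with the block and trended offsets they were 3, 1 and 2 (2.64%, 0.986% and 1.42%).

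The median log2 fold changes ran from -0.08 to 0.28 for Smndc1 shRNA and from 0.03 to 0.37 for Atrx shRNA over the alternatives run. They shifted from their values with TMM scaling by less than the SD between replicates (0.188 and 0.254), other than Smndc1 against Atrx shRNA, which moved from -0.03 to -0.28 over receptor gene bodies only (SD 0.214). Depth limits weak regions most: the median receptor region had a mean of 19.8 counts.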
